A study of Mus musculus with 12 samples.

Results

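The genes described here are 9 genes of the pre-B cell receptor and the B lineage, taken by symbol: Vpreb1, Vpreb3 and Igll1, Cd79a and Cd79b, Blnk, Pax5, Ebf1 and Rag1. They were found by matching the gene symbol of each probe in the platform table to these names, which gave 11 probes of 8 genes, against 20289 genes with a named probe in all. Of the 8, 6 were bright enough to be tested among 11472 genes. Cd79a had no named probe and was not analysed here, and Pax5 and Ebf1 were too dim to be tested.

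Developing B cells assemble their heavy chain first and test it before any light chain exists. The heavy chain then pairs with a surrogate light chain, made of the products of Igll1 and Vpreb1, and sits at the membrane with the signalling chains encoded by Cd79a and Cd79b, forming the pre-B cell receptor. The adaptor encoded by Blnk carries the signal onward, Rag1 encodes a subunit of the recombinase that cuts the immunoglobulin genes, and Ebf1 and Pax5 encode the transcription factors that set up and hold the B lineage programme. In bone marrow this programme marks pro-B, pre-B and immature B cells.

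All cells came from bone marrow of β-globin/GFP transgenic mice aged 3 months, and RNA of each sample was hybridized to 1 Illumina mouse array. The 12 arrays fall into 4 groups of 3. The SCF group holds CD117+ cells given stem cell factor, the ligand of the receptor CD117 (c-Kit), at 3 µg per ml for 48 hours. The U group holds CD117+ cells that are not listed as treated, and the labels do not write out what U stands for. The C group holds CD117+ cells and the A group CD117- cells, both without SCF and obtained by magnetic separation. Per the methods both fractions were taken from 3 mice, each replicate from its own mouse, without saying so for U and SCF or which numbers share a mouse, so p-values measure the spread between these samples. Kit, the gene of CD117, averaged 11.50 on the C arrays and 9.34 on the A arrays (log2 intensity, log2 difference 2.16, adjusted p = 4.94e-09 from limma). Kit read 10.39, 10.17 and 10.06 on the U arrays and 10.72, 10.74 and 10.61 on the SCF arrays. Both of these groups thus lay between the A and the C arrays. Each array had 16210 to 18248 of 45281 probes above background, and precision is limited by having 3 arrays a group. In RNA of whole fractions, fewer cells of a type and less RNA per cell cannot be told apart.

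The promoters of Vpreb1, Igll1, Vpreb3 and Blnk are shown because the results turn on these genes and because their windows hold different sets of B lineage motifs. The windows run from 250 bases before to 50 after the annotated start (RefSeq, GRCm38.p6, 5′ to 3′ in the direction of the gene), namely chr16:16869206-16869505 (minus strand) for Vpreb1, chr16:16863936-16864235 (minus strand) for Igll1, chr10:75948050-75948349 (plus strand) for Vpreb3 and chr19:40994172-40994471 (minus strand) for Blnk. Capitals mark every match on either strand to CCCNNGGG (the EBF1 palindrome), CAGGTG (the E box bound by E2A), CAGCTG (another E box), ATGCAAAT (the octamer), GAGGAA (the core bound by PU.1) and TGTGGT (the core bound by Runx factors).
Vpreb1: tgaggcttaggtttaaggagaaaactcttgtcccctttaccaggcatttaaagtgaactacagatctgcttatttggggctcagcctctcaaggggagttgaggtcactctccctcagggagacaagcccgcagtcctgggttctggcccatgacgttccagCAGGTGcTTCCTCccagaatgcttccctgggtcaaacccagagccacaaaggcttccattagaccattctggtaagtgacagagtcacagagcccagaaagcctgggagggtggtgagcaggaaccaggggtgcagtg
Igll1: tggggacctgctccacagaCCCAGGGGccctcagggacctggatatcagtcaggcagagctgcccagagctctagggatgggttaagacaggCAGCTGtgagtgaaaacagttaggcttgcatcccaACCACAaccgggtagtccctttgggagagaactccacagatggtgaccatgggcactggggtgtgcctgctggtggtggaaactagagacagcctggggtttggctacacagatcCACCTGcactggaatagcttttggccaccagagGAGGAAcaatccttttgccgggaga
Vpreb3: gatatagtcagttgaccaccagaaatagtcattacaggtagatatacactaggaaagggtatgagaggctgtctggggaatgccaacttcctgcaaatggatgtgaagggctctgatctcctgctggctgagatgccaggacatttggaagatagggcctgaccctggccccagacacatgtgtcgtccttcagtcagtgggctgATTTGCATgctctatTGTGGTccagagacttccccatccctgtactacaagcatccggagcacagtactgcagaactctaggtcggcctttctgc
Blnk: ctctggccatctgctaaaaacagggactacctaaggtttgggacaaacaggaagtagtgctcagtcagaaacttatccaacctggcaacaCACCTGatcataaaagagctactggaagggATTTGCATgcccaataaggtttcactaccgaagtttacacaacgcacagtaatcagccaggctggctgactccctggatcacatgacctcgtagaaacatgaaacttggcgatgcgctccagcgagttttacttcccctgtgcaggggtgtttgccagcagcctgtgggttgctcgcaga
None of the capital stretches overlap each other. The Igll1 window held the EBF1 palindrome at bases -231 to -224 from the start, the only such match in the 9 windows available for 8 of the listed genes, and 13.7% of all 32851 windows held it. The octamer, found in 1.74% of all windows, lay at bases -45 to -38 in Vpreb3 and at bases -130 to -123 in Blnk. The E box CAGGTG lay at bases -88 to -83 in Vpreb1, at -8 to -3 in Igll1 and at -160 to -155 in Blnk, and 20.2% of all windows held it. The other shares were 16.3% for CAGCTG, 28.3% for GAGGAA and 16.8% for TGTGGT. A match is a description of the letters and no evidence of binding. Igll1 and Vpreb1 are neighbours on chromosome 16, separated by 4415 bases.

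The values that follow are log2 intensities after background correction and quantile normalization over the 12 arrays, given in the order of replicates 1, 2 and 3. A probe counted as above background at a detection p under 0.05, and the dimmest probes above background read 4.63 to 4.82 on the 12 arrays.

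Vpreb1, which encodes the variable-like part of the surrogate light chain, read 5.41, 5.11 and 5.29 on the SCF arrays, 5.60, 5.19 and 5.65 on the U arrays, 6.07, 6.05 and 5.59 on the C arrays and 10.10, 10.56 and 10.07 on the A arrays. Vpreb1 has a near copy, Vpreb2, and whether its probe also reads that gene was not tested. It was above background on every array, and the A arrays stood far above the rest, while the U arrays overlapped both the SCF and the C arrays. Igll1, which encodes λ5, its constant-like part, read 4.37, 4.40 and 4.47 on the SCF arrays, 4.40, 4.45 and 4.58 on the U arrays, 6.08, 6.46 and 6.01 on the C arrays and 10.50, 11.26 and 10.64 on the A arrays. Its probe is named by the older symbol Igl-5. Igll1 was above background on all 6 arrays of the A and C groups and on none of the U and SCF groups. Vpreb3, whose product is retained inside B lineage cells with immunoglobulin chains, read 4.75, 5.05 and 4.80 on the SCF arrays, 6.01, 5.59 and 6.08 on the U arrays, 6.24, 6.62 and 6.08 on the C arrays and 11.26, 11.72 and 11.44 on the A arrays. The SCF arrays were the lowest and did not overlap the U arrays, and the U and C arrays lay side by side with their nearest replicates at the same rounded value.

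Cd79b, which encodes Igβ, the signalling chain shared by the pre-B and the mature B cell receptor, read 8.00, 8.27 and 8.18 on the SCF arrays, 8.46, 8.25 and 8.09 on the U arrays, 8.62, 9.01 and 8.72 on the C arrays and 11.36, 11.69 and 11.53 on the A arrays. All 12 arrays were above background, the A arrays were the brightest, and the SCF and U arrays overlapped. Blnk read 5.49, 5.69 and 5.13 on the SCF arrays, 6.71, 7.27 and 6.38 on the U arrays, 6.09, 5.97 and 5.84 on the C arrays and 8.23, 8.91 and 8.43 on the A arrays. It was the only gene of the 6 tested whose level on the U arrays lay above the C arrays without overlap, as for 32.7% of all genes tested. Rag1 read 4.76, 4.46 and 4.19 on the SCF arrays, 4.67, 4.63 and 4.44 on the U arrays, 4.48, 4.55 and 4.38 on the C arrays and 5.31, 5.98 and 6.00 on the A arrays. It was above background on all A arrays, on SCF replicate 1 and on U replicate 1, and on no C array.

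**Figure D1:**
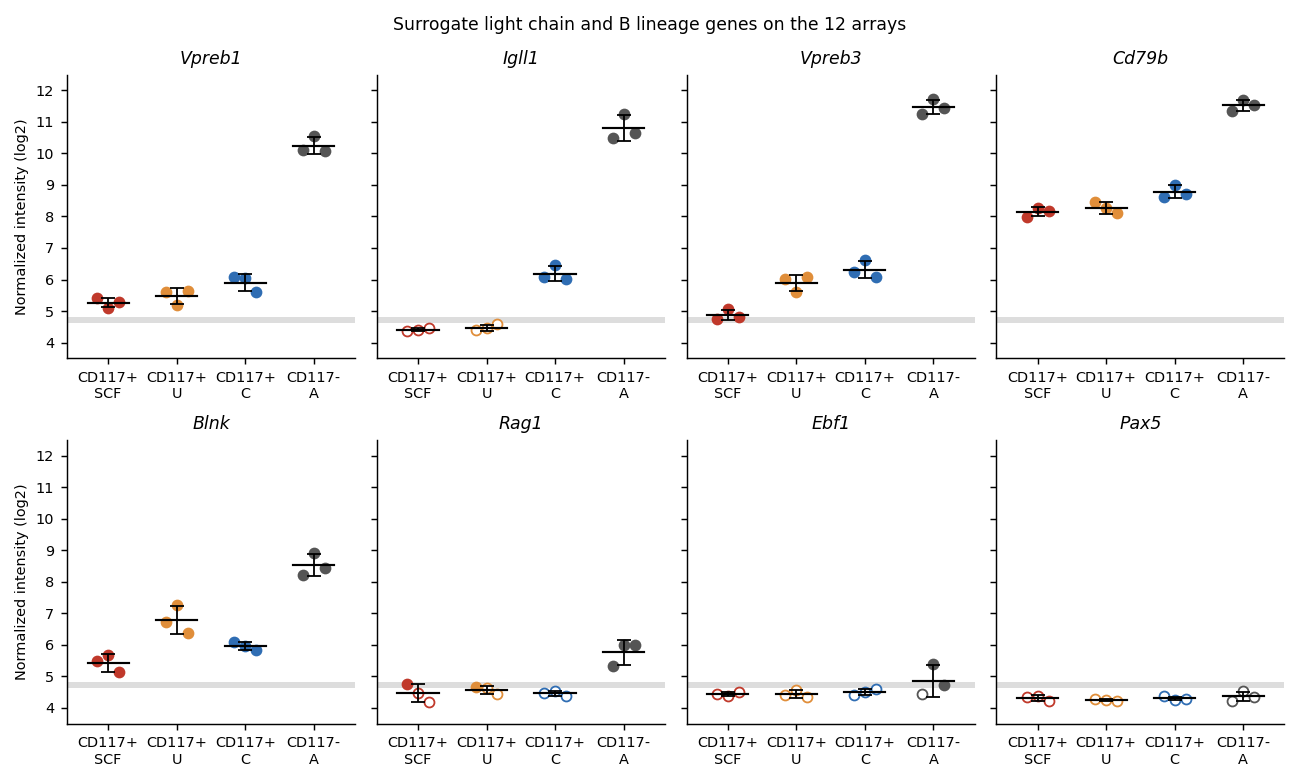
Log2 intensity of the brightest probe of each listed gene (y axis) on the 12 arrays, by group (x axis); filled points are above background and open points are not, black lines are the group mean with SD (n = 3), and the grey band is the range of the dimmest signal above background, 4.63 to 4.82. All 6 tested genes were highest on the CD117- A arrays, Blnk was next highest on the U arrays, and Pax5 lay under the band on all 12 arrays.

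The probes of both lineage factors read at or near background, which does not show that the transcripts were absent. Pax5 had 1 probe, which was above background on 0 of 12 arrays and read between 4.21 and 4.53. Ebf1 had 2 probes, 1 of them named by the older symbol Ebf, and the dimmer was above background on no array. The brighter Ebf1 probe read 4.44, 5.40 and 4.71 on the A arrays and was above background on A replicates 2 and 3, while its readings on the 9 CD117+ arrays ended at 4.59 and were all below background. Too few arrays passed for either gene to enter the tests. In a limma fit of all 20289 genes without the filter on dim probes, the difference of C minus A was -0.35 for Ebf1 (standard error 0.17, adjusted p = 0.143) and -0.07 for Pax5 (standard error 0.07, adjusted p = 0.552).

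The first comparison, of the CD117+ C cells with the CD117- A cells, asks how the CD117+ fraction differs from the fraction without CD117. All 6 tested genes were lower in C cells, where 21.3% of all 11472 genes were lower and 29.6% were higher at an adjusted p under 0.05. Rag1 entered the test through its A arrays, so the count over the tested genes is a description. Vpreb3 averaged 6.32 ± 0.28 in C cells and 11.47 ± 0.23 in A cells (SD, n = 3 each), 35.7-fold lower (log2 difference -5.16, standard error 0.19, adjusted p = 1.52e-12 from limma). Igll1 averaged 6.18 ± 0.24 in C cells and 10.80 ± 0.41 in A cells, 24.6-fold lower (-4.62, standard error 0.20, adjusted p = 7.99e-12). Vpreb1 averaged 5.90 ± 0.27 in C cells and 10.24 ± 0.27 in A cells, 20.2-fold lower (-4.34, standard error 0.20, adjusted p = 1.68e-11). These 3 genes had the largest differences of the 6. The size of these differences depended on the background correction: without it they were -4.17 for Vpreb3, -3.59 for Igll1 and -3.18 for Vpreb1, and with the authors' processed values -4.07, -3.49 and -3.07 in the same order, all with the call kept.

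The receptor chain and the adaptor differed less. Cd79b averaged 8.78 ± 0.20 in C cells and 11.53 ± 0.17 in A cells, 6.70-fold lower (log2 difference -2.74, standard error 0.15, adjusted p = 1.74e-10). Blnk averaged 5.96 ± 0.13 in C cells and 8.53 ± 0.35 in A cells, 5.90-fold lower (-2.56, standard error 0.23, adjusted p = 9.46e-08). Second probes of both genes were read as well, the dimmer Cd79b probe with a difference of -2.87 and the dimmer Blnk probe with -2.08, and both were lower (adjusted p = 3.58e-09 and 2.53e-06 in a limma fit of 17712 probes). Rag1 was above background on no C array and averaged 5.77 ± 0.39 in A cells, which makes it at least 2.17-fold lower in C cells (adjusted p = 1.35e-05). This bound sets the mean of the bright group against the dim probe's signal or, where that is lower, the dimmest reading above background. It holds on this scale only, since the fitted difference of Rag1 was -0.43 without background correction and -0.35 with the authors' processed values, where it was called too. The differences of Blnk were -1.63 and -1.54 under the same settings.

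Every C array lay below every A array for all 6 genes, as for 23.5% of all genes tested. Markers of other cells moved as well, in both directions. Of 8 neutrophil markers, 7 were lower in C cells and their summed linear level was 1694 to 3152 on the C arrays and 96501 to 107852 on the A arrays. Of 9 monocyte and macrophage markers, 8 were lower, with sums of 1079 to 1276 in C cells and 2665 to 3401 in A cells. The 6 tested T cell markers summed to 757 to 871 in C cells and 2134 to 2523 in A cells, with 1 higher and 1 lower. The fall of the sum was that of Cd3d, at 6.69, 6.81 and 6.82 on the C arrays and 10.89, 10.98 and 10.64 on the A arrays. The median log2 difference of the 6 markers was 0.25, and Cd4 and Cd8a were too dim to be tested. Other lists went the other way. All 6 tested stem and progenitor markers were higher in C cells. Of 7 mast cell and basophil markers 6 were higher and 1 was lower, and of 7 megakaryocyte markers 4 were higher and 0 lower. The part of these other cells in the results for the B lineage genes was not tested.

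The second comparison sets the SCF-treated CD117+ cells against the U cells, and "with SCF" means relative to U cells. The labels give a time of 48 hours for the SCF cells and none for the U cells. SCF and any difference in time or culture therefore cannot be told apart here. Of the 6 genes, 2 were lower and 0 were higher with SCF, where 13.7% of all genes were lower and 14.1% were higher. Blnk averaged 5.44 ± 0.28 in SCF cells and 6.79 ± 0.45 in U cells, 2.55-fold lower (log2 difference -1.35, standard error 0.23, adjusted p = 0.000349), and its dimmer probe was lower as well (-1.18, adjusted p = 0.00191). Vpreb3 averaged 4.87 ± 0.16 in SCF cells and 5.89 ± 0.27 in U cells, 2.03-fold lower (-1.03, standard error 0.19, adjusted p = 0.000737). Both passed the test against a difference of 0 but not a test against a fold of 1.5 (adjusted p = 0.0586 for Blnk and 0.281 for Vpreb3). The SCF arrays of Vpreb3 lay close to the dimmest signal above background. Without background correction the differences were -0.62 for Blnk (adjusted p = 0.00283) and -0.35 for Vpreb3 (adjusted p = 0.0402), and with the authors' processed values -0.71 and -0.42.

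The other genes did not pass. The difference was -0.21 for Vpreb1 (95% interval -0.63 to 0.20, adjusted p = 0.467), -0.12 for Cd79b (-0.44 to 0.19, adjusted p = 0.597) and -0.11 for Rag1 (-0.49 to 0.27, adjusted p = 0.712). These intervals leave room for differences in either direction. Igll1 was below background in both groups, so no fold change is given. The dimmer Cd79b probe had a difference of 0.06 (adjusted p = 0.870).

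**Figure D2:**
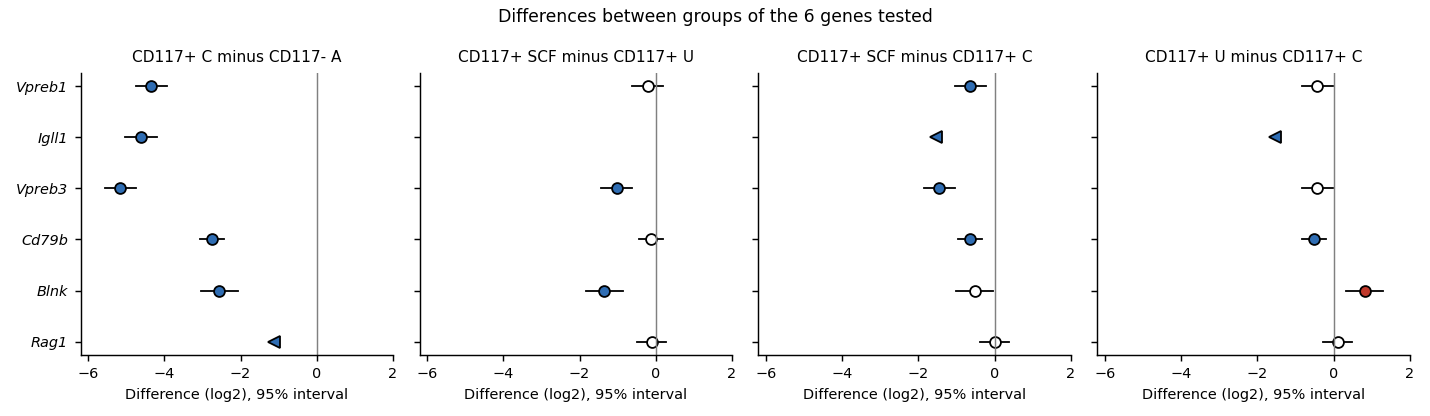
Log2 difference (x axis) of the 6 tested genes (y axis) in 4 comparisons, with 95% intervals from limma. Blue is lower and red is higher at an adjusted p under 0.05, and white did not pass. Left-pointing triangles are bounds where 1 group had no reading above background. Rag1 in SCF minus C and in U minus C has no bound and is drawn with its interval. Igll1 is left out of SCF minus U because both groups were below background. The differences between C and A cells reach -5.16 for Vpreb3, and only Blnk in U minus C is higher, at 0.82.

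Blnk is also used by myeloid cells, and its level beside markers of other cells was therefore read on each array. The summed level of the 9 tested monocyte and macrophage markers was 2545 to 5048 on the SCF arrays, 7298 to 10246 on the U arrays, 1079 to 1276 on the C arrays and 2665 to 3401 on the A arrays. With SCF, 6 of the 9 were lower and 1 was higher than in U cells. Of these markers Ccr2 was above background on no SCF and no U array. The 7 plasmacytoid dendritic cell markers summed to 1889 to 2166 on the SCF arrays, 2057 to 2642 on the U arrays, 1731 to 2070 on the C arrays and 3026 to 3384 on the A arrays. T cell markers summed to 318 to 397 on the SCF arrays and 665 to 811 on the U arrays, with 5 of 6 lower and 0 higher with SCF. Sums of some other lists were lower with SCF as well, with 4 of 4 eosinophil markers lower (1602 to 1741 on the SCF arrays and 10983 to 13707 on the U arrays), 6 of 7 megakaryocyte markers (20536 to 21520 and 51870 to 54186 on the same arrays) and 4 of 5 erythroid markers, where 1 was higher (5671 to 8541 and 18172 to 21721). The NK cell sum went the other way, at 1126 to 1614 on the SCF arrays and 580 to 929 on the U arrays. Of its 3 tested markers 1 was higher and 0 were lower with SCF. Of 6 tested stem and progenitor markers 2 were higher and 0 were lower with SCF. The neutrophil sum was 29928 to 32614 on the SCF arrays and 33647 to 36485 on the U arrays, with 3 of 8 markers lower and 1 higher. The mast cell and basophil sums overlapped, with 2 of 7 markers lower and 1 higher. The monocyte, T cell, neutrophil, eosinophil, megakaryocyte and erythroid sums thus had the same order of SCF and U as Blnk and Vpreb3. The part of these cells in the results was not tested.

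**Figure D3:**
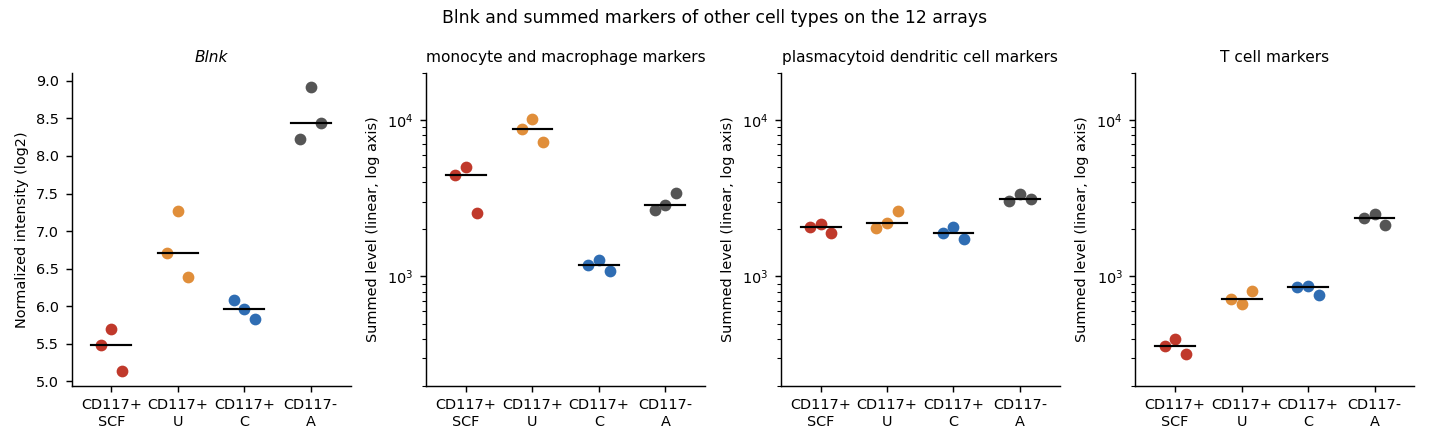
Blnk as log2 intensity (left panel) and the summed linear level of 9 monocyte and macrophage, 7 plasmacytoid dendritic cell and 6 T cell markers (log axes) on the 12 arrays by group (x axis), with black lines at the group medians. Blnk and the monocyte and macrophage sum were both higher on the U than on the SCF and the C arrays, while Blnk was highest on the A arrays and that sum was not.

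The remaining comparisons set the SCF and the U cells against the C cells. The authors' processed values had medians of 93.44 to 93.47 on the A and C arrays and of 103.52 to 103.54 on the U and SCF arrays. The 4 groups were therefore read as 2 sets, and set and condition cannot be told apart here. Both comparisons use the same C arrays, and SCF minus C shares its SCF arrays with SCF minus U. Of the 6 genes, 4 were lower and 0 were higher in SCF than in C cells, where 21.9% of all genes were lower and 24.6% were higher. In U against C cells 2 were lower and 1 was higher, where 28.5% of all genes were lower and 28.5% were higher.

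Among the 6 genes, Igll1 differed most between the sets. Its probe was above background on all 3 C arrays and on no SCF or U array, which makes it at least 2.89-fold lower in SCF than in C cells (adjusted p = 1.17e-06) and at least 2.89-fold lower in U than in C cells (adjusted p = 1.28e-06). Without background correction its fitted differences were -0.62 in SCF minus C and -0.60 in U minus C, both called, so the bound holds on the scale used here only. Its partner Vpreb1 stayed above background everywhere, with a difference of -0.64 for SCF minus C (standard error 0.20, adjusted p = 0.0131) and -0.42 for U minus C (standard error 0.20, adjusted p = 0.0740). The call of Vpreb1 in SCF cells was lost without SCF replicate 2 (adjusted p = 0.0570), without C replicate 1 (0.0609) and without C replicate 2 (0.0577). Without C replicate 3, the lowest C array, Vpreb1 was lower in U than in C cells (-0.58, adjusted p = 0.0275), and so was Vpreb3 (-0.54, adjusted p = 0.0423).

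Vpreb3 was lower in SCF than in C cells by a difference of -1.45 (standard error 0.19, adjusted p = 8.96e-06), which was -0.55 without background correction, and had a difference of -0.42 in U minus C (standard error 0.19, adjusted p = 0.0694). Cd79b was lower in both, with -0.63 for SCF minus C (standard error 0.15, adjusted p = 0.00211) and -0.51 for U minus C (standard error 0.15, adjusted p = 0.00730). The call in U cells was lost without C replicate 2 (-0.40, adjusted p = 0.0523). The dimmer Cd79b probe was lower in both as well, with -0.49 (adjusted p = 0.0458) and -0.55 (adjusted p = 0.0221). When the arrays were scaled to a common median in place of quantile normalization, Cd79b passed in neither (adjusted p = 0.114 and 0.102).

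Blnk was the 1 gene of the 6 called higher in U than in C cells, where 28.5% of all genes were higher. It was 1.77-fold higher in U than in C cells (0.82, standard error 0.23, adjusted p = 0.00573), and its dimmer probe was higher too (0.75, adjusted p = 0.0151). In SCF minus C its difference was -0.53 (95% interval -1.01 to -0.04, adjusted p = 0.0710), which did not pass over all genes. Rag1 was near background in all 3 CD117+ groups, with a difference of 0.11 for U minus C (adjusted p = 0.628).

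In the order of levels, all 6 genes were highest in A cells, and the step to the next group passed the test for each (25.7% of all genes were lower in U than in A cells). Rag1 entered the test through its A arrays, so its first place and first step are a description. Vpreb1 and Vpreb3 then followed the order C, U, SCF. Cd79b did so on the probe used, while its dimmer probe read 7.26 in SCF cells and 7.20 in U cells. Igll1 was next highest in C cells, and its U and SCF readings, all below background, have no order. Between C and U the step was past the threshold for Igll1 (adjusted p = 1.28e-06) and Cd79b (adjusted p = 0.00730) but not for Vpreb1 or Vpreb3. Of these genes, Vpreb3 alone had a step past the threshold between U and SCF. Blnk followed the order A, U, C, SCF, where A stood 1.74 above U on the log2 scale (adjusted p = 5.36e-06) and the step between C and SCF did not pass. For Rag1 no step after the first passed, and its readings in the CD117+ groups were mostly below background.

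The genes nearest in pattern were sought among all genes tested, by the root mean square difference between a gene's levels, centred on its own mean, and the mean centred profile of the 6 genes over the 12 arrays. The 8 nearest were Akap12 (0.24 on the log2 scale), Cyp4b1-ps2 (0.25), Blk (0.26), Ccno (0.27), Reck (0.28), Ypel4 (0.29), 4930597A21Rik (0.30) and Tinagl1 (0.30). Blk, a Src family kinase of B cells, read 4.32, 4.33 and 4.27 on the SCF arrays, 4.44, 4.52 and 4.41 on the U arrays, 4.96, 5.22 and 4.84 on the C arrays and 8.39, 9.12 and 9.16 on the A arrays. It was above background on the A and C arrays alone. Among the 6 genes themselves Cd79b lay closest to their mean profile (0.36) and Rag1 farthest from it (1.17). These distances are a description over 12 arrays and carry no test.

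**Figure D4:**
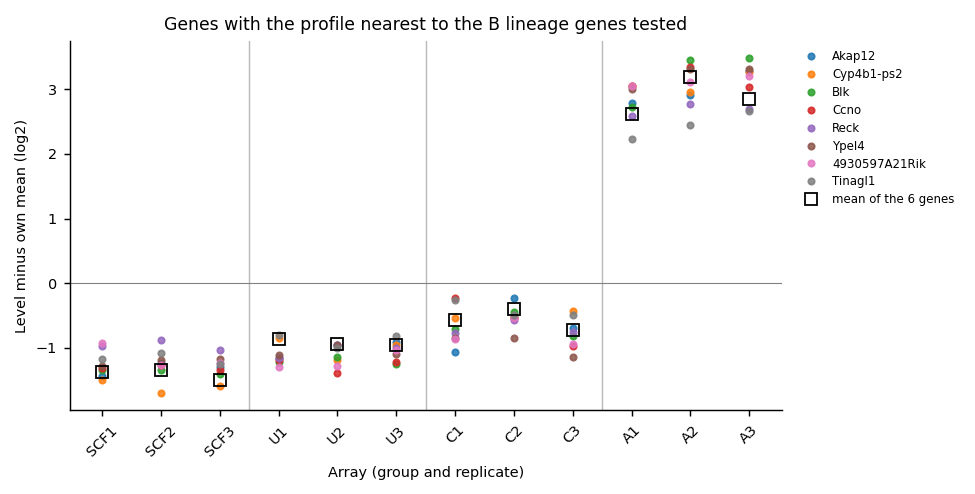
Level minus the gene's own mean over the 12 arrays (log2, y axis) on each array (x axis) for the 8 genes nearest in profile to the 6 tested B lineage genes, whose mean profile is drawn as black squares. The mean profile stood at 2.62 to 3.19 on the 3 A arrays and at -1.49 to -0.39 on the 9 CD117+ arrays.

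The wider B lineage was read through lists of genes from textbook knowledge. Of 20 B lineage transcription factors 18 were tested, and 9 were lower and 4 higher in C than in A cells, with a median log2 difference of -0.38, against 0.07 over all genes. Spib, a factor related to PU.1, was 9.31-fold lower (-3.22, adjusted p = 1.24e-09), Spi1, which encodes PU.1 itself, was lower by -1.39 and Foxo1, which drives transcription of the Rag genes, by -1.39. In SCF against U cells 5 of the 18 were lower and 3 higher (median -0.05). Pou2af1, a coactivator that acts with octamer-binding factors, was 2.70-fold lower with SCF (-1.43, adjusted p = 0.000757), Mef2c was lower (-1.07) and Bcl11a, needed for B lineage entry, was higher (1.32). In SCF against C cells 7 were lower and 6 higher (median -0.08), and in U against C cells 6 were lower and 5 higher (median -0.17). Id3, an inhibitor of E2A, was higher in SCF than in C cells (1.81) and in U than in C cells (2.34), while Pou2af1 was 4.12-fold lower in SCF than in C cells (-2.04, adjusted p = 8.32e-06).

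Of 23 genes of pre-B and B cell receptor signalling 19 were tested, and 11 were lower and 0 higher in C than in A cells (median -0.63). Blk was 14.7-fold lower (-3.88, adjusted p = 4.18e-11), Cd72, an inhibitory coreceptor, 10.6-fold lower and Prkcb, the protein kinase C downstream of the receptor, 9.25-fold lower. In SCF against U cells 2 were lower and 2 higher (median -0.11), with Cd72 higher (0.93) and Prkcb lower (-0.53). In SCF against C cells 11 were higher and 2 lower (median 0.40), and in U against C cells 12 were higher and 3 lower (median 0.55). Fcgr2b, an inhibitory Fc receptor found on B cells and on myeloid cells, was higher in SCF than in C cells (1.96) and in U than in C cells (2.20). Plcg2, a phospholipase used by B cells and by other blood cells, was higher by 1.61 in U than in C cells. Prkcb read 8.97, 9.12 and 8.69 on the U arrays and 6.98, 7.38 and 6.88 on the C arrays. Cd72 went the other way, at 5.53, 5.75 and 5.65 on the U arrays and 7.12, 7.40 and 6.87 on the C arrays. Neutrophil markers summed to 29928 to 32614 on the SCF arrays, 33647 to 36485 on the U arrays and 1694 to 3152 on the C arrays. These sums were higher on the SCF and U arrays too, and the part of neutrophils was not tested.

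Of 14 genes of pro-B and pre-B cells 8 were tested, and 5 were lower and 1 higher in C than in A cells (median -0.68). Akap12 was 12.6-fold lower (-3.65, adjusted p = 1.78e-10), Ly6d lower by -1.62 and Il7r, the receptor chain for interleukin 7, by -1.25. In SCF against U cells 4 were lower and 1 higher (median -0.47). Arpp21 was 3.67-fold lower with SCF (-1.87, adjusted p = 2.43e-06), Ly6d lower by -1.33 and Il7r by -1.07. In SCF against C cells 4 were higher and 2 lower (median 0.30). In U against C cells 5 were higher and 0 lower (median 0.54), with Arpp21 at 2.93 and Il7r at 1.75. Vpreb2, the near copy of Vpreb1, and Rag2, which encodes the partner of Rag1 in the recombinase, were not above background on 3 arrays and were not tested.

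Of 18 mature B cell genes 16 were tested, and 13 were lower and 0 higher in C than in A cells (median -1.84). Ms4a1 and Cxcr5 were above background on the A arrays alone and Fcer2a on the A arrays and C replicate 2, so they entered the test through A cells, and this count and median are a description. Fcmr, the Fc receptor for IgM, was 28.9-fold lower (-4.85, adjusted p = 2.95e-11), Cd40 lower by -2.97 and Fcer2a, which encodes CD23, by -2.72. In SCF against U cells 2 were lower and 1 higher (median -0.13), led by Ighm, the µ heavy chain that pairs with the surrogate light chain, at -1.37 (adjusted p = 5.76e-07). In SCF against C cells 5 were lower and 5 higher (median -0.11), and in U against C cells 5 were lower and 4 higher (median 0.01). Fcrla, an Fc receptor-like gene of B cells, was 14.0-fold lower in SCF than in C cells (-3.81) and 9.77-fold lower in U than in C cells (-3.29), while Cd180, a surface receptor of B cells and myeloid cells, was higher in SCF than in C cells (1.72) and in U than in C cells (2.21). Cd40 was 2.82-fold higher in SCF than in C cells, and its log2 difference in U minus C was 1.93, also called higher. In each list the counts are read beside the shares of all genes given above for the comparison, and no test of a list was run.

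**Figure D5:**
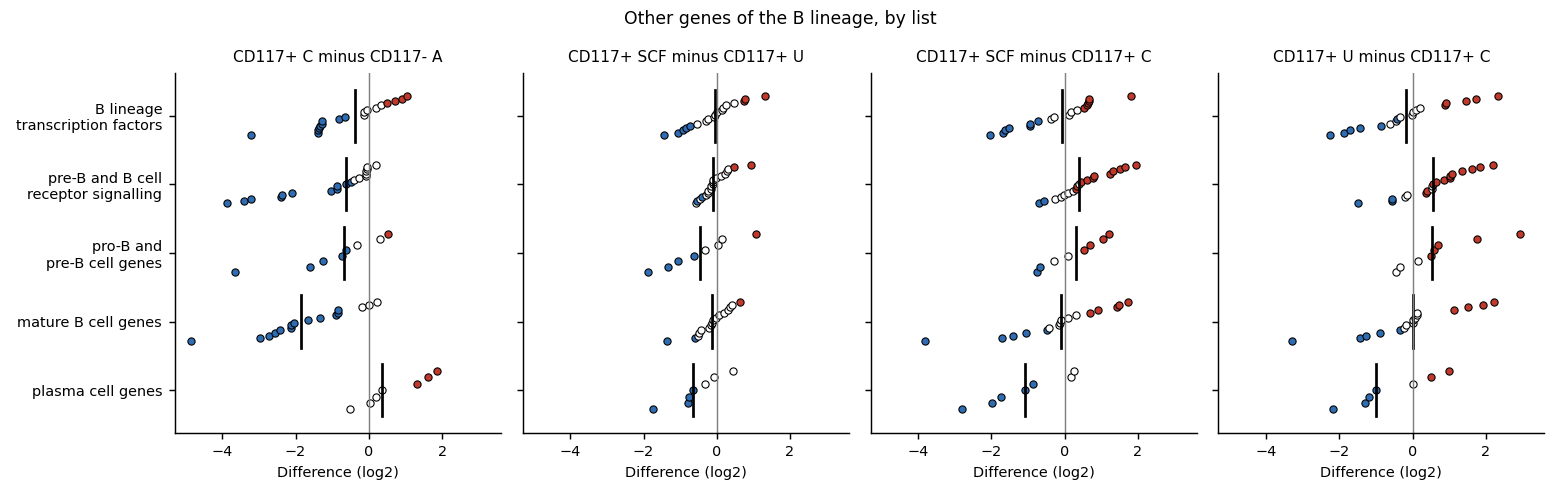
Fitted log2 difference (x axis) of each tested gene in 5 lists of B lineage genes (y axis) in 4 comparisons; blue is lower and red is higher at an adjusted p under 0.05, white did not pass, and black bars are list medians. Receptor signalling genes had a median of -0.63 in C minus A and of 0.55 in U minus C, and mature B cell genes a median of -1.84 in C minus A.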

How the data were processed

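The authors deposited raw scanner intensities (linear, neither background-corrected nor normalized) with a detection p-value per probe, and processed intensities. The medians of the processed intensities lay together for A with C and, at another level, for U with SCF. For the array model and scanner software, the sources used here give no name. The intensities were corrected by normexp with the detection p-values and quantile normalized over 12 arrays (neqc, offset 16, limma 3.58.1 in R 4.3.3) and taken to log2. Of 45281 probes, 35784 had 1 symbol, 0 had several and 9497 had none. Symbols were updated through the gene ID (28620 probes), an accession (2637), a current symbol (2128) or an older one (2343), and 56 were kept as written. Probes above background at a detection p under 0.05 on 3 or more arrays were kept, and the brightest stood for each of 11472 genes. Groups were compared with lmFit and eBayes (with trend) on 4 group means, which left 8 residual degrees of freedom, and p-values were adjusted by Benjamini-Hochberg over the 11472 genes, with 0.05 as the threshold. The fit was tested on simulated data. Promoters came from RefSeq (GRCm38.p6), and figures from matplotlib 3.10.9 in Python 3.11.15. Beside the 9 genes, the text names Kit, the leading genes of each list among those past the threshold, and the 8 nearest profiles. The genes and lists were chosen with earlier results of these data known. Alternatives changed the background correction, the normalization, the values used, the filter, the probe rule, the arrays fitted, the replicate block, array weights, the threshold, the trend and each replicate in turn. No 2 arrays shared raw values in more than 0.00221% of probes.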

Additional observations from a re-analysis of the deposited data

Results flagged for a closer look

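The brighter Ebf1 probe was above background on A arrays alone and was too dim for the comparisons over 11472 genes. The dimmer probe was above background on no array. On A replicates 2 and 3 the brighter probe was above background, at 5.40 and 4.71 on the log2 scale. A replicate 1, at 4.44, was below background and lay within the range of the CD117+ arrays. The probe was flagged on its arrays above background only, so A replicate 1 did not count. The highest of the 9 CD117+ arrays read 4.59 and none of them was above background. Ebf1 encodes an early B lineage transcription factor. In the fit of 20289 genes without the filter on dim probes the difference of C minus A did not pass (-0.35, adjusted p = 0.143), and groups of 3 arrays were too small for a check of single arrays.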

How the results depend on the processing

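All 6 genes tested were lower in C than in A cells under 13 other settings and 6 fits that each left out 1 array. Rag1 entered the test through its A arrays, so this count too is a description. In SCF against U cells the count of 2 lower became 0 with a fold threshold of 1.5 and stayed at 2 in every fit without 1 array. In SCF against C cells the count of 4 lower became 2 with median scaling and 2 with the fold threshold, and was 3 to 4 without 1 array each. In U against C cells the count of 2 lower became 1 with median scaling, 1 with the fold threshold and 4 with array weights, and was 1 to 4 without 1 array each, with the ends at C replicate 2 and C replicate 3 left out. The count of 1 higher became 0 with the fold threshold. The fold threshold asks more than a difference from 0, and the cause of the other shifts was not tested. Median scaling moved the median of all genes in C minus A to 0.49, against 0.07, and the share of calls that were higher to 85.4%, against 58.1%. In SCF minus C it moved them to 0.18, against -0.01, and 73.8%, against 52.9%, and in U minus C the share was then 61.0%, against 3274 higher and 3275 lower calls before. Relative to the median of all genes, the C minus A differences were then -4.20 for Vpreb1, -5.07 for Vpreb3, -4.51 for Igll1, -2.60 for Cd79b, -2.36 for Blnk and -1.35 for Rag1. The direction of Rag1, which passed in neither comparison, turned in SCF minus U without SCF replicate 3 (0.031), the highest of a range from -0.25 without 1 array each. In SCF minus C it turned with no background correction (-0.030), normexp without negative controls (-0.051), median scaling (-0.0023), without SCF replicate 1 (-0.14) and without C replicate 3 (-0.042), in a range up to 0.14 without 1 array each. The Vpreb1 call in SCF minus C was lost with no background correction (adjusted p = 0.114), normexp without negative controls (0.0571) and median scaling (0.121). Blnk passed in SCF minus C when only the 6 arrays compared were fitted (adjusted p = 0.0231), when they were also normalized alone (0.0244) and with array weights (0.0471). The authors' processed values were run only for C against A and SCF against U, the pairs whose medians in these values lay together.

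Samples with the same replicate number had correlations of their deviations from the group mean of -0.19 to 0.21, and only U and C replicate 3 matched their own number best. This does not settle whether equal numbers share a mouse, and they were treated as sharing only a number. With the replicate number as a block, the counts of lower genes were 6 in C against A, 2 in SCF against U, 5 in SCF against C and 2 in U against C. Blnk in SCF minus C (-0.53, adjusted p = 0.0333) was the 1 call among the 6 genes that the block changed. Over all genes the block called 5276 genes in SCF against C, against 5337 without it. Readings near 4.63 to 4.82, such as those of Rag1 and of Vpreb3 on the SCF arrays, limit what their differences can show.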

Other observations

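Of 8 listed genes of antibody-secreting plasma cells 7 were tested, and 3 were higher and 0 lower in C than in A cells, where 29.6% of all genes were higher and 21.3% lower (median log2 difference 0.37, against 0.07 over all genes). Tnfrsf17, which encodes the receptor BCMA, averaged 7.31 in C cells and 5.45 in A cells (1.86, adjusted p = 4.19e-08 from limma), and Derl3, a factor of protein disposal in the endoplasmic reticulum, averaged 6.53 in C cells and 4.93 in A cells (1.60, adjusted p = 3.93e-07). In SCF against U cells 4 were lower and 0 higher (median -0.64), where 13.7% of all genes were lower, with Mzb1, a chaperone of B lineage secretion, 3.36-fold lower (-1.75, adjusted p = 7.03e-05) and Derl3 lower by -0.80. In SCF against C cells 5 were lower and 0 higher, and in U against C cells 4 were lower and 2 higher, where 21.9% and 28.5% of all genes were lower. Tnfrsf17 was above background on no SCF array and was at least 6.31-fold lower in SCF than in C cells (adjusted p = 2.38e-10), and it was 4.49-fold lower in U than in C cells (adjusted p = 4.96e-09). Ighm averaged 14.04 in C cells and 13.83 in A cells (0.21, adjusted p = 0.134), and both lay near the highest reading of the genes on the lists and marker lists used (14.43). Dntt, the terminal transferase that adds bases at immunoglobulin joints, was the 1 pro-B and pre-B gene that was higher in C than in A cells (0.53, adjusted p = 0.0282), with readings of 5.31, 5.25 and 5.38 on the C arrays and 4.84, 5.09 and 4.43 on the A arrays.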
